A study of Nothobranchius furzeri and Aphyosemion australe and Iconisemion striatum with 145 samples.

Results

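The genes described here are the members of the Sox, T-box, GATA, Klf, Sp and Sall families of transcription factors in embryos of the African turquoise killifish (Nothobranchius furzeri) at the pre-diapause stage. They were chosen by gene symbol, with earlier results of these data known, and 51 of the 25122 genes in the table matched. Of these, 50 are genes of the 6 families: 13 Sox, 11 T-box, 4 GATA, 11 Klf, 7 Sp and 4 Sall genes. The remaining gene, tbxa2r, encodes a thromboxane receptor whose symbol merely begins with the same letters. A further 31 genes that the table lists only by a numbered LOC identifier carry a matching symbol in RefSeq. They are counted apart and are called LOC genes below.

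RNA was sequenced from 4 pools of unmanipulated embryos, each of 8 to 10 embryo bodies freed of the chorion, the outer enveloping layer and the yolk. By the labels the embryos had 15 to 22 somites, while the paper's methods give a higher upper limit for this stage. The embryos had a Kupffer's vesicle, a transient ciliated organ, roughly a day before the heart starts to beat. Eggs of the earliest breeding of young fish were used, since few of these are expected to enter diapause. All 4 libraries share 1 species, 1 stage and 1 condition, so the design offers no contrast between groups for these genes, and the comparisons below are between libraries and between genes. The labels give the same range of somites for every pool and not where each lay within it. Differences in age between pools within that range therefore cannot be told apart from other differences between them. Lyretail and red-striped killifish libraries of the same stage carry no gene symbols and were not used here.

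The 6 families act early and in combination. Sox proteins bind DNA through an HMG box; SoxB1 factors keep neural progenitors, SoxE factors drive neural crest and SoxF factors act in endoderm and endothelium. T-box factors pattern mesoderm, from the tail bud to the heart and limbs. GATA factors fall into a blood and ectoderm group and a heart and gut group, whereas Klf, Sp and Sall proteins are zinc finger factors, many with broad roles in growth and differentiation. A pool of whole embryo bodies mixes all these tissues, so that fewer cells of a type and less RNA per cell cannot be told apart.

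Between 25985703 and 41191533 reads were counted per library, the most in library 2. Values are given as CPM, counts per 1000000 counted reads, which are not divided by gene length, so a higher CPM of 1 gene than of another does not mean more transcripts. In a check of 13 tissue marker lists, 5 of the 5 somite and muscle markers found reached 1 CPM in every library, with a summed level of 193 to 335 CPM. So did 5 of the 5 enveloping layer and skin markers found, at 479 to 659 CPM, and 3 of the 5 yolk and yolk syncytial layer markers found. None of the markers found was at 0 in all libraries, but only 1 of 5 hatching gland markers was found. A marker listed with a final a or b was read from the row of the plain symbol where no other row matched. This was so for snai1b, pax6a, pax7a, fli1a, tnnt2a and col8a1a, and which copy those rows are was not settled. The sums of some lists differed between libraries in a common way, in part through single genes. Leaving out genes of the 6 families, libraries 1 and 3 held 398 and 419 CPM of heart markers against 219 and 250 CPM in libraries 2 and 4. Of these sums myl7 alone made up 91.9% to 95.3%, and the other 3 markers summed to 20.3, 15.1, 19.7 and 20.2 CPM. These 3 did not share 1 profile. Like myl7, tnnt2a was higher in libraries 1 and 3, with 17.97, 6.68, 16.9 and 11.7 CPM in libraries 1 to 4. The reverse held for nkx2-5, with 2.31, 7.96, 2.48 and 7.78 CPM, and hand2 stayed below 1 CPM. The yolk markers had 73.8 and 65.3 CPM in libraries 1 and 3 against 15.3 and 20.5 CPM. That sum followed apoa2, with 58.6, 7.57, 51.9 and 9.59 CPM in libraries 1 to 4. Lowest in library 2 like apoa2 were ttr, with 8.08, 3.69, 8.07 and 5.67 CPM, and apoc2, with 1.69, 0.291, 0.766 and 0.436 CPM. So was slc26a1, with 2.54, 0.631, 1.71 and 2.01 CPM. Only apoba was not, with 2.89, 3.08, 2.89 and 2.82 CPM. The sum of somite and muscle markers ran the other way, with 204 and 193 CPM in libraries 1 and 3 and 335 and 308 CPM in libraries 2 and 4. The markers myf5, meox1, tcf15 and myod1 were each higher in libraries 2 and 4. The marker myog did not share this, with 21.7, 21.7, 16.8 and 21.4 CPM. The part of these tissue and depth differences in the values of single genes was not tested.

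Most members were detected. At least 1 count was found in every library for 48 of the 51, where 77.4% of all genes reached this, and 34 reached 1 CPM in every library, which is called expressed below, where 53.7% of all 25122 genes did. A further 8 members reached 1 CPM in some libraries, and 9 stayed below it in all, beside 37.1% of all genes. On this scale, which is not per length, the median member had an average of 5.48 CPM against 2.38 CPM for the median of all genes. Among expressed genes alone the order was reversed, with 9.70 CPM for the members and 14 CPM for all. The families differed in how many members were expressed: 7 of 7 Sp genes and 4 of 4 Sall genes, 9 of 13 Sox genes, 7 of 11 Klf genes, 5 of 11 T-box genes and 2 of 4 GATA genes. Of the 31 LOC genes, 20 were expressed.

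**Figure D1:**
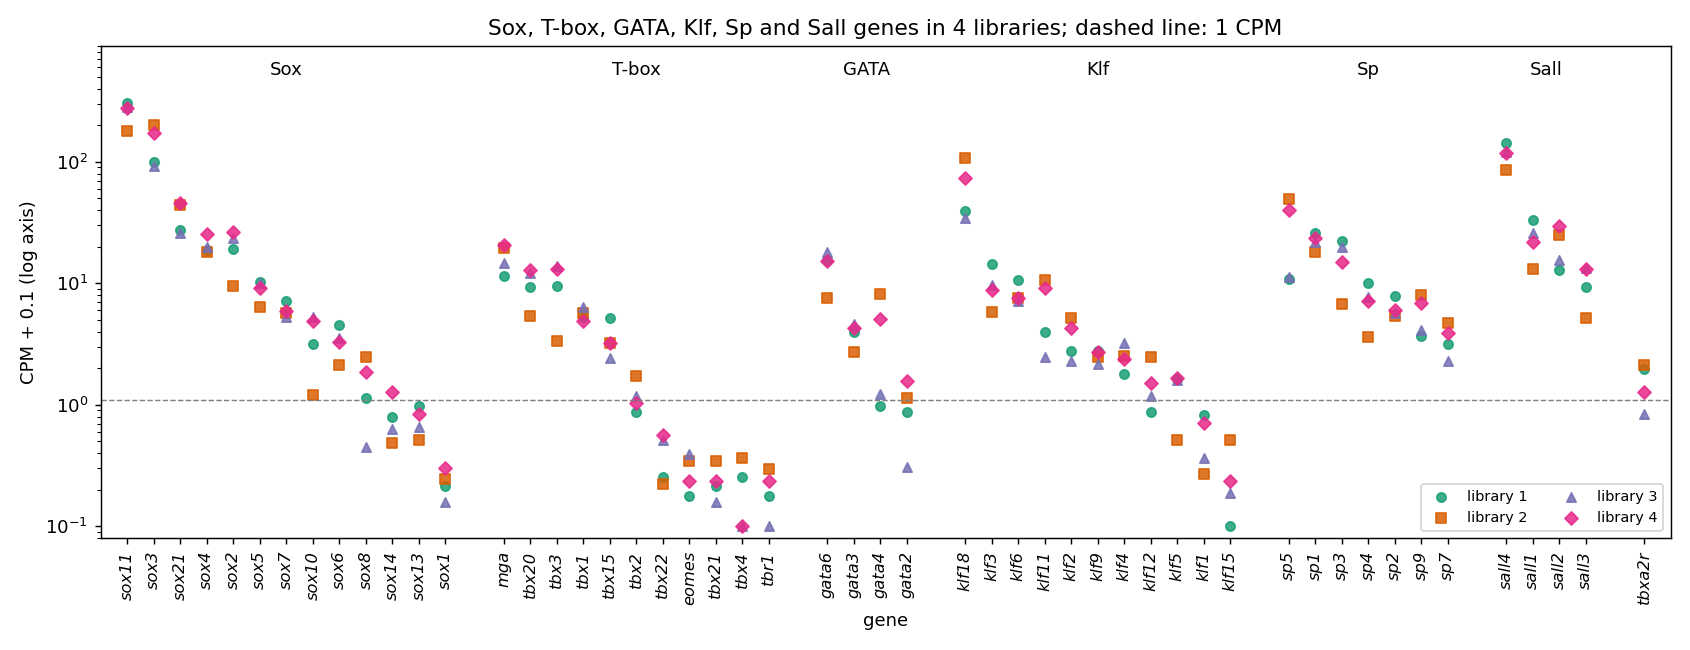
CPM (plus 0.1, log axis) of the 51 members in each of the 4 libraries, by family and in falling order of the mean; each point is 1 library and the dashed line marks 1 CPM. All Sp and Sall genes lie above the line in every library, whereas the T-box family reaches from mga at 11.4 to 20.7 CPM down to tbx4 and tbr1, which have libraries without a count.

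Of the SoxB genes, which act in neural cells, sox3 and sox2 ran opposite ways in library 2. The SoxB1 gene sox3 had 98.9, 201, 93.1 and 174 CPM in libraries 1 to 4 (142 ± 53.9 CPM, SD, n = 4). Its SoxB1 relative sox2, a factor of neural stem cells and of pluripotency, had 18.9, 9.44, 23.8 and 26.2 CPM (19.6 ± 7.39 CPM). Library 2 was thus the highest for sox3 and the lowest for sox2. The SoxB2 gene sox21, a repressor in neural progenitors, followed sox3, with 27.6, 43.8, 25.8 and 46.2 CPM. Gene length cancels when a ratio of 2 genes is followed from library to library, and the ratio of sox3 to sox2 moved 5.41-fold between library 3 and library 2. Without library 2 it moved 1.70-fold. The pair was chosen after its values were seen. The 4 neural markers outside the families showed both profiles. The neuronal gene elavl3 had 57.8, 34.5, 58.1 and 51.0 CPM, and pax6a and pax2a were likewise lowest in library 2, whereas neurog1, a proneural factor, had 64.6, 98.7, 40.9 and 66.5 CPM. The SoxB2 gene sox14, a factor of interneurons, had 0.693, 0.388, 0.530 and 1.17 CPM, and sox1, a SoxB1 gene, had 2 to 6 counts per library. The LOC gene sox1a had 1.35, 1.94, 0.530 and 1.14 CPM. A LOC gene named sox19b, the SoxB1 gene that is maternally supplied in zebrafish, had 48.5, 49.2, 49.0 and 64.4 CPM, and only library 4 departed from the others.

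SoxC factors act in young neurons and other differentiating cells. The gene sox11 took the most counts of all members, with 303, 180, 285 and 277 CPM (261 ± 55.2 CPM), and sox4 had 18.9, 18.2, 19.8 and 25.2 CPM (20.5 ± 3.18 CPM). Library 2 was the lowest for both on library totals, by a clear margin for sox11. With library sizes rescaled by TMM, a normalization that centres the bulk of genes, library 1 became the lowest for sox4. Together sox11, sox3 and the Sall gene sall4 made up 51.8% to 59.3% of the counts of the 51 members.

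SoxE genes, which act in neural crest and its derivatives, were lower in library 2 in the case of sox10 but not of sox8. The row named sox10, a defining factor of neural crest, had 3.08, 1.12, 5.19 and 4.79 CPM from 46 to 176 counts, lowest in library 2. A LOC gene also named sox10 in RefSeq had 8.35, 3.45, 7.69 and 8.72 CPM and was likewise lowest in library 2. How the 2 rows relate to sox10 of other fish was not settled here. The member sox8, a crest and glial factor, had 1.04, 2.38, 0.354 and 1.78 CPM, highest in library 2, and its LOC copy sox8a had 9.97, 8.04, 6.57 and 6.04 CPM. Of the 7 crest and pigment markers outside the families, 4 were, like sox10, lowest in library 2, as were 36.6% of all expressed genes. The 7 summed to 100, 162, 90.4 and 132 CPM, highest in library 2. This sum followed the marker snai1b, read from a row named snai1 that does not say which copy it is. A gene also used outside the crest, it had 37.8, 118, 27.0 and 58.2 CPM. Without snai1b it was 62.6, 43.6, 63.4 and 73.8 CPM. Of the SoxD genes, which modulate SoxE activity in cartilage and crest, sox5 had 6.26 to 10.2 CPM and sox6 2.04 to 4.46 CPM, both lowest in library 2, and sox13 stayed below 1 CPM throughout.

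Of the SoxF genes, the member sox7, an endothelial factor, was steady, with 7.08, 5.61, 5.22 and 5.83 CPM (5.93 ± 0.806 CPM). A pair of LOC genes that RefSeq places next to each other with no coding gene between them carries the endoderm symbols sox17 and sox32. The gene sox17 had 2.77, 13.7, 3.36 and 8.58 CPM, a 4.93-fold range. Its neighbour sox32, which acts upstream of sox17 in zebrafish endoderm, had 0, 24, 2 and 4 counts. The 0 of library 1 allows up to 0.115 CPM, taking 3 counts as the limit. The LOC gene sox18, also endothelial, had 4 to 8 counts per library. The 2 endoderm markers outside the families had a sum of 29.6, 65.1, 29.7 and 53.1 CPM. Most of it was foxa2, with 25.4, 59.6, 25.1 and 46.3 CPM, which shared the profile of sox17. The other, foxa3, had 4.19, 5.49, 4.63 and 6.81 CPM, highest in library 4. The member gata6, on the same marker list, was lowest in library 2. What these tissue sums contribute to the Sox values was not tested.

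The T-box genes of tail bud and presomitic mesoderm were found among the LOC genes. The Brachyury gene tbxta had 20.5, 43.3, 19.7 and 37.2 CPM. The gene tbx16, which directs trunk mesoderm in zebrafish, had 9.27, 47.8, 8.75 and 30.6 CPM, and tbx6, a segmentation factor of presomitic mesoderm, had 1.27, 5.87, 1.68 and 4.96 CPM. Libraries 2 and 4 were above libraries 1 and 3 for each of these 3 genes, as they were for 28.8% of all expressed genes. Markers outside the families differed in this. The tail bud marker fgf8a had 32.1, 47.0, 19.1 and 32.4 CPM, with libraries 2 and 4 highest, though library 4 barely above library 1. The presomitic marker msgn1 did not share this order, with 72.3, 68.8, 60.6 and 80.6 CPM. Nor did wnt3a, with 1.23, 1.07, 1.27 and 0.436 CPM. The sum of the 3 tail bud and presomitic markers outside the families was 106, 117, 80.9 and 113 CPM. A row named t, an older symbol for Brachyury that the choice by symbol did not cover, had 3.31, 12.5, 1.65 and 7.54 CPM and was noted after its values were seen.

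T-box genes of heart, limb and head did not share 1 profile. The heart field factor tbx20 had 9.31, 5.32, 12.0 and 12.8 CPM (9.86 ± 3.38 CPM). The gene tbx3, a repressor in the cardiac conduction system, eye and limb, had 9.35, 3.23, 13.7 and 12.9 CPM (9.80 ± 4.77 CPM). Both were lowest in library 2, and tbx3 spanned 4.24-fold. The pharyngeal factor tbx1 was among the steadiest members, with 5.20, 5.66, 6.25 and 4.83 CPM (5.48 ± 0.613 CPM). The gene tbx15, a mesenchymal factor, had 5.12, 3.11, 2.33 and 3.12 CPM. The LOC genes tbx5a, required for heart and pectoral fin, and tbx18, an epicardial and somite factor, had 1.54, 1.48, 1.74 and 1.84 CPM and 4.50, 3.64, 4.07 and 2.98 CPM. The repressor tbx2, another heart and eye gene, had 0.770, 1.63, 1.09 and 0.939 CPM, highest in library 2, and the palate gene tbx22 had 0.121 to 0.469 CPM. The hindlimb gene tbx4 had 4, 11, 0 and 0 counts, and the zeros of libraries 3 and 4 allow up to 0.0884 and 0.101 CPM.

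T-box genes of the forebrain and of immune cells had few counts. The cortical neuron gene tbr1 had 0 to 8 counts per library, eomes 2 to 10 counts, and tbx21, a lymphocyte factor, 2 to 10 counts. By contrast mga, a large protein that joins a T-box to a Max-binding domain, had 11.4, 19.3, 14.7 and 20.7 CPM (16.5 ± 4.27 CPM), highest in libraries 2 and 4.

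The GATA genes of heart and gut, gata4 and gata6, ran opposite ways by a clear margin in library 2 alone. The gene gata4 had 0.885, 8.04, 1.12 and 5.00 CPM, from 23, 331, 38 and 149 counts. The 95% exact Poisson intervals of libraries 1 and 3, 0.561 to 1.33 CPM and 0.792 to 1.54 CPM, lay below those of library 4, 4.23 to 5.87 CPM, and library 2, 7.19 to 8.95 CPM. These intervals cover counting error only. The related gata6 had 15.4, 7.53, 17.9 and 15.1 CPM (13.99 ± 4.49 CPM), lowest in library 2, where gata4 was highest. The ratio of gata4 to gata6 therefore moved 17.9-fold between library 1 and library 2, and 5.57-fold without library 2, in a pair chosen after its values were seen. The heart marker nkx2-5 went with gata4, with 2.31, 7.96, 2.48 and 7.78 CPM. By contrast myl7, a myosin light chain of heart muscle, had 378, 204, 400 and 230 CPM. The heart marker tnnt2a was, like myl7, lower in libraries 2 and 4, with 17.97, 6.68, 16.9 and 11.7 CPM. The third gene of this group, the LOC gene gata5, had 1.15, 0.704, 0.118 and 0.972 CPM, with 4 counts in library 3.

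Among GATA genes of blood and ectoderm, gata3, a factor of ectoderm and kidney duct, had 3.85, 2.65, 4.51 and 4.16 CPM (3.79 ± 0.809 CPM). The member gata2 had 0.770, 1.04, 0.206 and 1.48 CPM, and its LOC copy gata2a 4.46, 10.8, 5.28 and 8.18 CPM. The erythroid regulator gata1a, another LOC gene, had 1.00, 3.91, 1.95 and 3.99 CPM. Both gata2a and gata1a were higher in libraries 2 and 4 than in libraries 1 and 3, as were 28.8% of all expressed genes. Markers outside the families were divided. Of the blood markers, lmo2 had 83.8, 139, 53.3 and 99.3 CPM and alas2 had 3.62, 10.2, 2.89 and 4.46 CPM. Both were highest in libraries 2 and 4, whereas spi1b, a myeloid factor, was higher in libraries 1 and 3. The blood markers outside the families, mostly lmo2, summed to 89.1, 151, 57.7 and 105 CPM. The hematopoietic and endothelial factor tal1 had 4.77, 15.4, 4.57 and 18.1 CPM, also highest in libraries 2 and 4. The endothelial genes kdrl, fli1a and cdh5 were lowest in library 2, with 8.04, 5.34 and 4.10 CPM. The erythroid Klf gene klf1 stayed below 1 CPM in each library, at 0.170 to 0.731 CPM.

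Within the Klf family klf18 took the most counts, with 39.6, 107, 34.5 and 73.5 CPM (63.6 ± 33.6 CPM). The gene klf11, a repressor regulated by TGF-beta signals in mammals, had 3.89, 10.7, 2.36 and 9.05 CPM (6.49 ± 3.99 CPM), and klf2, a flow-responsive endothelial factor, had 2.69, 5.10, 2.21 and 4.22 CPM. In all 3, libraries 2 and 4 were the highest, a pattern of 28.8% of all expressed genes. The summed CPM of the 11 Klf members ran from 63.9 CPM in library 3 to 144 CPM in library 2, an order of extremes kept under TMM and DESeq2 scaling. It followed klf18, which made up 50.4% to 74.2% of the sum. The other 10 members summed to 38.9, 37.1, 29.4 and 38.1 CPM, and library 2 was not the highest. The gene klf3, a repressor with roles in blood and skin, had the opposite profile at 14.4, 5.68, 9.58 and 8.72 CPM. The gene klf6 had 10.5, 7.45, 7.10 and 7.41 CPM, highest in library 1. The hormone-responsive gene klf9 kept within 2.06 to 2.66 CPM, and klf4, a factor of epidermis and pluripotency, within 1.69 to 3.12 CPM. The members klf12 and klf5 crossed 1 CPM in 3 of 4 libraries, and klf15, a metabolic regulator, had 0, 17, 3 and 4 counts, where the 0 of library 1 allows up to 0.115 CPM.

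All Sp genes were expressed. The broadly used factor sp1 was even across pools, with 25.7, 17.96, 21.7 and 23.4 CPM (22.2 ± 3.27 CPM), and sp2 had 5.27 to 7.77 CPM. The related sp3 had 22.2, 6.72, 19.8 and 15.0 CPM, and sp4 had 3.54 CPM in library 2 against 7.11 to 9.93 CPM in the others. The Wnt target sp5 had 10.8, 49.5, 11.2 and 40.2 CPM (27.9 ± 19.9 CPM). Libraries 2 and 4 were its 2 highest, as they were for 28.8% of all expressed genes. The ratio of sp5 to sp3, in a pair chosen after the values were seen, moved 15.1-fold, and 5.51-fold without library 2. The gene sp9, which acts in limb ectoderm and brain, had 3.58, 7.96, 4.07 and 6.84 CPM, and sp7, the bone factor osterix, had 2.18 to 4.66 CPM. The LOC gene sp6 was nearly constant at 3.09 to 3.50 CPM.

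Sall genes encode zinc finger repressors of stem cells, limb and kidney. The stem cell factor sall4 had 143, 84.9, 120 and 118 CPM (117 ± 24.0 CPM) and sall1, a kidney and limb factor, had 33.0, 12.9, 26.1 and 21.7 CPM (23.4 ± 8.39 CPM). The gene sall3 had 9.20, 5.05, 13.2 and 12.9 CPM. These 3 were lowest in library 2, whereas sall2 had 12.9, 25.0, 15.4 and 29.7 CPM (20.7 ± 7.94 CPM) and was highest in libraries 4 and 2. The family sum was lowest in library 2 under each of the 3 scalings, at 128 CPM on library totals, but its highest library was 1 on library totals and 3 under TMM and DESeq2 scaling.

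**Figure D2:**
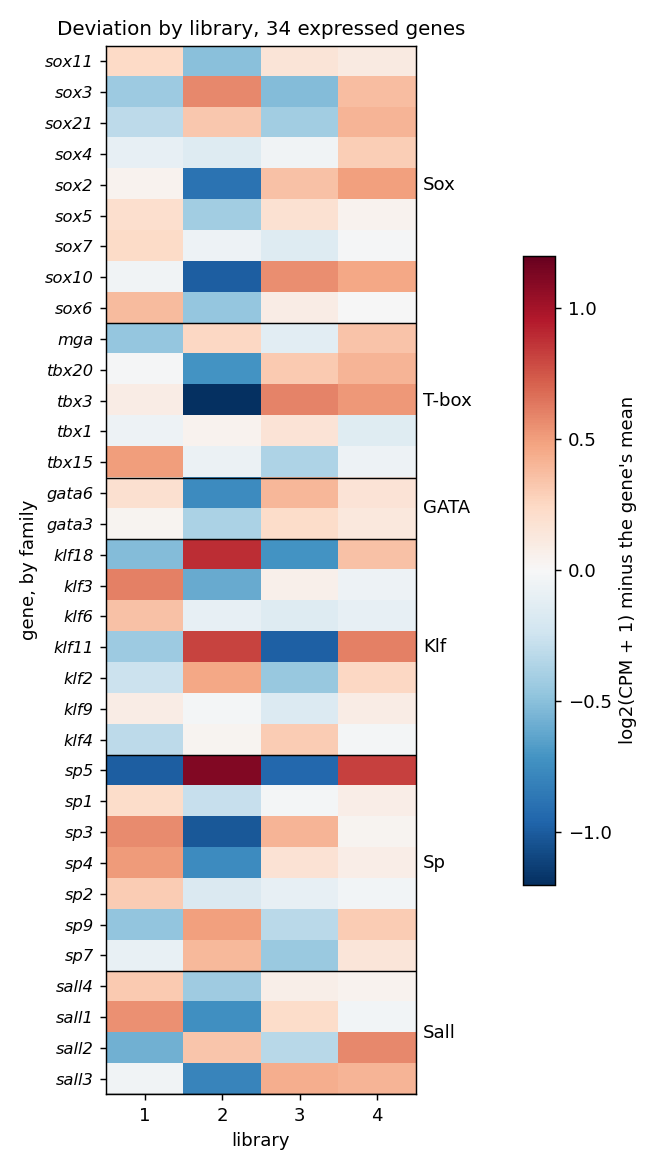
Deviation of log2(CPM + 1) from the gene's own mean (colour) for the 34 expressed members (rows, by family) in the 4 libraries (columns). Red rows in library 2 are led by sp5, klf18, klf11 and sox3, and blue ones by tbx3, sox10, sp3 and sox2.

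Recurrent profiles were counted over the 34 expressed members. Library 2 was the lowest for 18 of them, 52.9%, where it was the lowest for 36.6% of all 13479 expressed genes. The 18 were sox2, sox4, sox5, sox6, sox10, sox11, tbx3, tbx20, gata3, gata6, klf3, sp1, sp2, sp3, sp4, sall1, sall3 and sall4, and 17 of them had the same lowest library with TMM or DESeq2 scaling. Library 2 was the highest for 7 members, 20.6%, against 34.7% of all expressed genes. Library 3 was the lowest for 10 members, 29.4%, beside 38.7% of all, and with TMM for 5 members, beside 25.3% of all. Libraries 2 and 4 together were the 2 highest for 10 members, 29.4%, beside 28.8% of all expressed genes, so that the share was near that of all genes. Those 10 were sox3, sox21, mga, klf2, klf11, klf18, sp5, sp7, sp9 and sall2, and all 10 kept it under both other scalings. Libraries 1 and 3 were the 2 highest for 9 members, 26.5%, beside 21.8% of all. Some of these counts moved with scaling. Library 1 was highest for 14 members, 41.2% beside 33.1% of all, and with TMM for 10 members beside 20.2% of all. Members share libraries and were not tested as replicates.

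**Figure D3:**
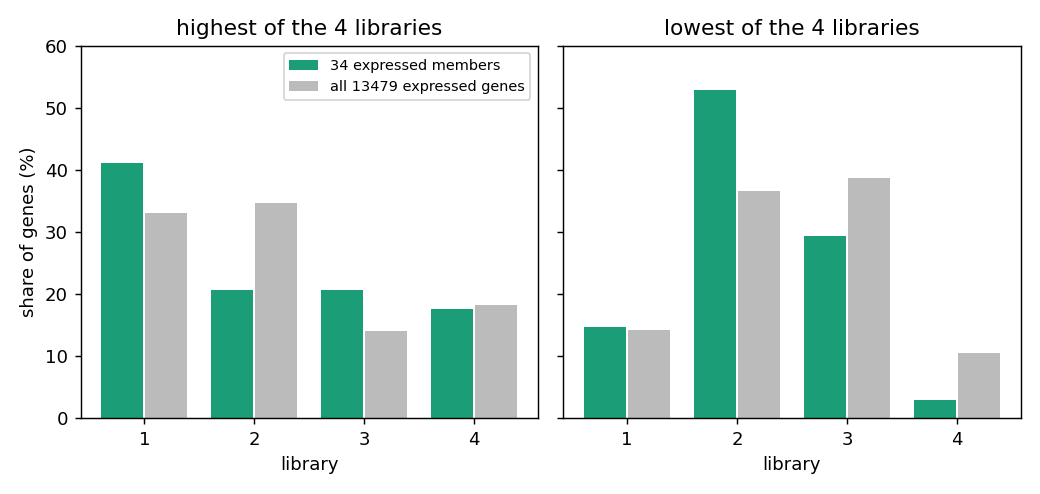
Share of genes (%, bars from 0) for which each library was the highest (left) or the lowest (right) of the 4, for the 34 expressed members and for all 13479 expressed genes. Library 2 is the lowest for 52.9% of the members and 36.6% of all expressed genes.

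Spread between pools was set beside that of genes of a like level. The SD of log2(CPM + 1) over the 4 libraries had a median of 0.43 over the expressed members and 0.32 over all expressed genes. For 22 of the 34 it was above the median of all genes with 0.5 to 2 times the same mean CPM, and 6 members lay above 90% of such genes. The 6 were sp5 with an SD of 1.12, klf11 with 0.85, tbx3 with 0.83, klf18 with 0.75, sp3 with 0.71 and sox10 with 0.71. At the other end klf9 had an SD of 0.12, tbx1 of 0.14 and sox7 of 0.16, where the median of genes of a like level was 0.32 to 0.33. Genes of a like level need not reach 1 CPM in every library, as the expressed members do. How many of all expressed genes pass the same marks was not computed. The highest library had at least 2 times the CPM of the lowest for 20 of 34 members, 58.8%, where 36.1% of all expressed genes did, and at least 3 times for 6, 17.6%, where 10.0% did. Beyond counting error, the variance across libraries relative to that expected from counts alone ranged from 1.02 for klf9 to 680 for sox3. Its median was 36.7 over the members and 27.6 over all expressed genes. At the same fold spread this ratio grows with a gene's counts, so it does not rank genes by spread. The SD of sox3, 0.56, was above that of 79.3% of genes of a like level. For klf9 the pools thus differed by about the counting error. Without library 2, 19 of 35 members were above their like-level median.

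**Figure D4:**
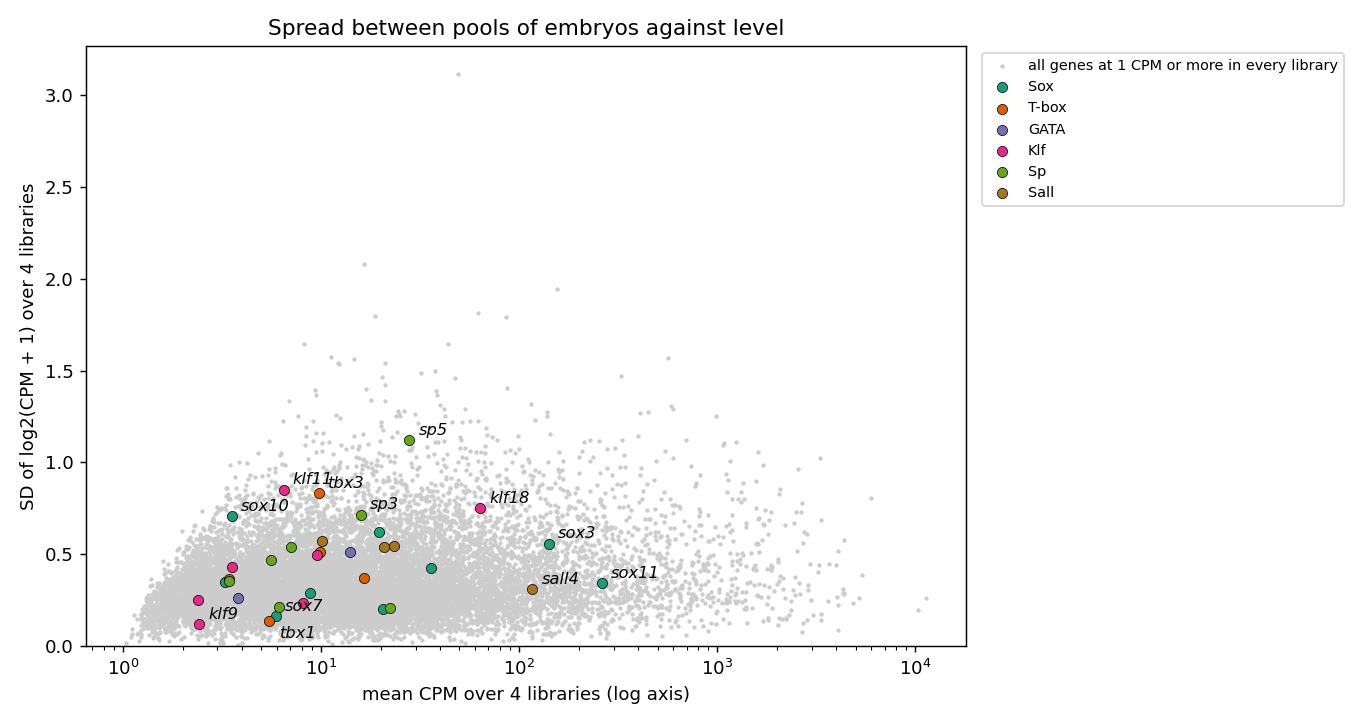
SD of log2(CPM + 1) over the 4 libraries against mean CPM (log axis) for all 13479 expressed genes (grey) and the 34 expressed members (coloured by family). Most members lie within the grey cloud, sp5 at 1.12 is the highest of them, and klf9 at 0.12 and tbx1 at 0.14 are the lowest.

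Teleost fish kept many duplicates from an ancient genome duplication. By name alone, 14 pairs of one root name could be formed from members and LOC genes, with klf5, klf5l and klf5b paired among themselves. Genes of a pair are called copies here, and whether they stem from that duplication was not examined. Both copies were expressed in 6 pairs, 1 copy in 5 and neither in 3. In each of the 6, the ratio of copies within a library moved at least 2-fold between libraries, as it did for 59.2% of all pairs of expressed genes, so nothing particular to copies is read from the count. Its range was 2.06-fold for the 2 rows named sox10, 2.27-fold for klf6 and klf6a, 2.92-fold for sox4 and sox4a, 3.65-fold for the 2 rows named sall2, 4.80-fold for sp8a and sp8b and 4.88-fold for klf11 and klf11a. Without library 2, 3 of the 6 still moved 2-fold. Without it the range was 1.55-fold for the sox4 pair and 3.07-fold for the sp8 pair, and without library 3 it was 2.33-fold for the klf11 pair.

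The 2 sp8 copies, factors of limb ectoderm and forebrain, are an example. The copy sp8b had 33.2, 32.4, 30.1 and 34.5 CPM, a 1.15-fold range, and sp8a had 5.46, 25.7, 5.13 and 17.5 CPM, a 5.02-fold range. In sp8a libraries 2 and 4 stood above the others, and in sp8b the 4 libraries were nearly level. In RefSeq sp8a lies next to sp4 with no coding gene between them, and sp4 ran against it, with its lowest value in library 2. Likewise klf11 spanned 4.52-fold and klf11a, at 5.31 to 7.78 CPM, 1.46-fold. The LOC copy sox4a had 5.20, 1.70, 3.51 and 4.79 CPM and spanned 3.06-fold, while sox4 spanned 1.38-fold. The row sall2 was highest in library 4 and its LOC namesake, at 9.93, 7.33, 8.87 and 6.27 CPM, was lowest there. In the pair of sall3 and sall3b the copies moved together, with a ratio that moved 1.11-fold, although sall3b had only 14 to 34 counts per library. Reads aligning to both copies were discarded by the authors, so counts of near-identical stretches are missing from both.

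**Figure D5:**
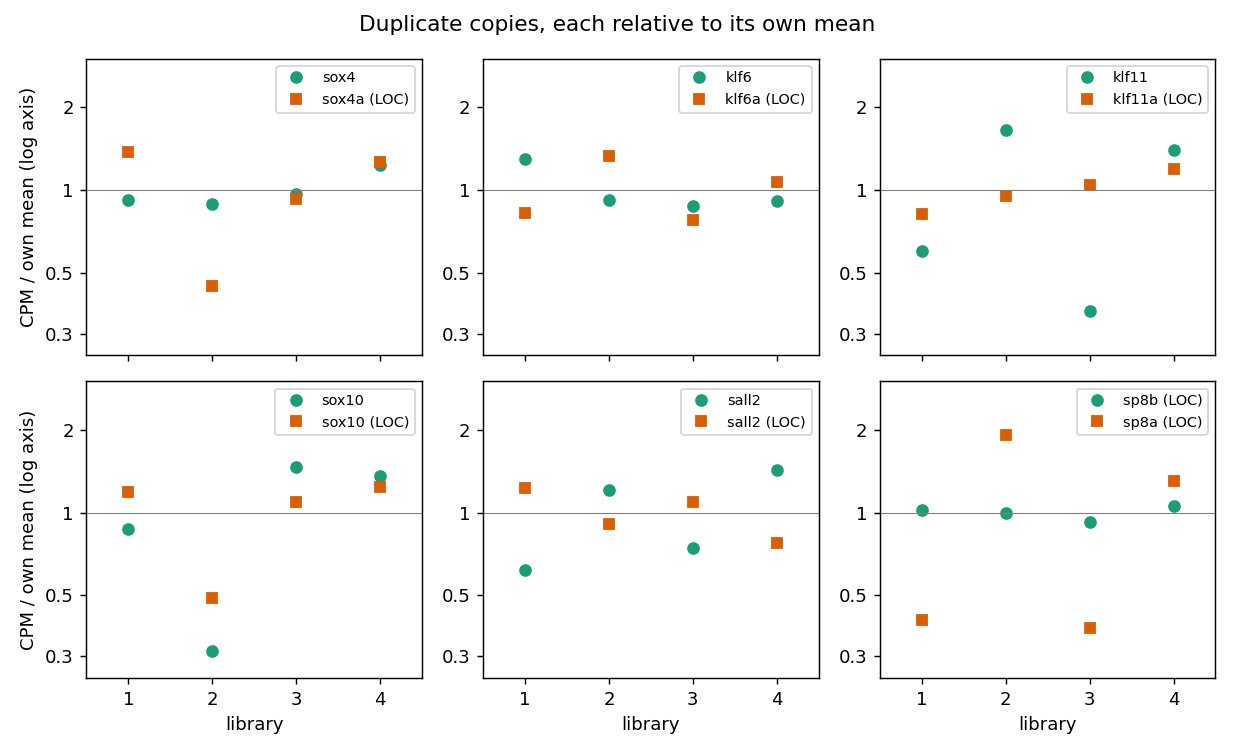
CPM of each copy divided by its own mean over the 4 libraries (log axis) in the 6 pairs with both copies expressed; each point is 1 library, and (LOC) marks a gene named through RefSeq. In the sp8 panel sp8b stays at 1 while sp8a spreads 5.02-fold, and in the klf11 panel klf11 spreads 4.52-fold and klf11a 1.46-fold.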

How the data were processed

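Per the labels and the paper's methods, the authors trimmed adaptors with Trim Galore 0.4.5, aligned reads with STAR 2.7.1a to the species' genome, kept reads of a single locus with samtools 1.5 and counted them with featureCounts of Subread 2.0.1. The paper lists Nfu_20140520 as its genome for the species, and the build behind this table is not stated apart from that. The deposited values are whole read counts per gene without normalization. From these counts, CPM on library totals were computed in Python 3.11.15 (numpy 2.4.6, pandas 2.3.3, scipy 1.17.1, figures in matplotlib 3.10.9). TMM factors came from edgeR 4.0.16 and size factors from DESeq2 1.42.0 in R 4.3.3, both used for scaling alone.

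Members were found by symbol, and LOC genes by the same gene number in the RefSeq table of the NfurGRZ-RIMD1 assembly, used for names and gene order only: 5257 of 14589 LOC identifiers have a symbol there. With 1 group of 4 libraries, no groups were tested against each other, and Dixon's ratio served to find single libraries standing apart. SDs measure the spread between these samples, for which no source says that they came from separate parents. Coding lengths and sequences were not used here, so the planned levels per length, and the exact test of whether copies differ in level per length, were not run; the movement of ratios between libraries, chosen after the data were seen, replaced them. The spread procedure was tried on simulated data with 200 genes changed in 1 library. Genes were drawn independently there, so the trial does not cover differences between libraries that many genes share. The members and lists were chosen with earlier results of these data known. By rule, each library's value is given for the 3 members of highest mean CPM in each family, for genes of the SoxB, SoxE, SoxF, tail and heart T-box and GATA lists that reach 1 CPM in a library, and for the 5 expressed members of largest spread. Other genes given library by library, and the gene pairs, were chosen after their values were seen. The alternatives covered the expression limit, scaling, pseudocounts and leaving out each library.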

Additional observations from a re-analysis of the deposited data

Results flagged for a closer look

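Among 67 members and LOC genes screened, 3 had a single library standing apart from the other 3 by Dixon's ratio, where chance gives about 1 in 20. The count is thus near that of chance, and nothing particular to these genes is read from it. The same share over all genes was not computed. The Klf member klf5, an epithelial factor, had 0.413 CPM in library 2, from 17 counts, against 1.503 to 1.58 CPM in the others. The member klf6 had 10.5 CPM in library 1, against 7.10 to 7.45 CPM. The LOC gene sox19b had 64.4 CPM in library 4, against 48.5 to 49.2 CPM.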

How the results depend on the processing

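No paired analysis was possible because the 4 libraries form a single group. The number of expressed members, 34, became 21 at 5 CPM in every library and 54 with the LOC genes included, and was 34 to 42 under the other limits and scalings tried. Leaving out single libraries gave 34 to 36. The median member's mean level was then 4.83 to 5.55 CPM, lowest without library 2. The same step gave 19 to 24 members above their like-level median and 3 to 6 pairs of copies whose ratio moved 2-fold, fewest without library 2. Of the 42 members with 1 CPM in some library, the mean of gata4 alone moved by over 1.5 times in any alternative, from 3.76 to 2.33 CPM without library 2. With TMM, the lowest library changed for 6 of 34 members and the highest for 6. Genes below about 1 CPM rest on few counts, and their order between libraries is limited by counting error.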
